A study of Rattus norvegicus with 4 samples.

Results

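The comparison set rat kidneys perfused with PPS against kidneys perfused without a supplement, in an isolated-organ model of DCD kidney donation, in which the donor has died by cardiac death. It used 2 of the 4 Affymetrix arrays of the series, chosen by their labels, and the difference was taken as PPS minus warm for each gene. All donors were male Wistar rats of 300 to 480 g. After 29 min of primary warm ischaemia in the body, the left kidney was taken out and flushed. It then underwent 3 h of cold machine perfusion in University of Wisconsin solution, a fluid for organ storage. Kidneys of the warm group next had 30 min of warm perfusion with Krebs-Henseleit buffer (modified and oxygenated), a balanced salt solution, as simulated reperfusion. The PPS group was treated alike except that PPS, given in the labels by this abbreviation only, was present at 10 IU/ml in both the cold and the warm perfusate. The 2 other groups, shown beside them, were cold perfusion alone and the same warm perfusion with low molecular weight heparin at 10 IU/ml in both perfusates. Each array carried an equimolar pool of RNA from 3 kidneys, picked for the quality of their RNA, with 6 ug of total RNA labelled. The model has no recipient animal. Since each group is 1 pooled array, the spread between kidneys is unknown, and no difference below has an error or a p-value. In whole kidney RNA, fewer cells of a type and less RNA per cell cannot be told apart.

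When oxygen and warmth return to an ischaemic organ, kinase cascades switch on immediate early genes, which are transcribed without new protein synthesis. Their products include the AP-1, Egr and Nr4a transcription factors, chemokines that recruit neutrophils and monocytes, and feedback inhibitors that end the same signals. Heparin is a sulfated glycosaminoglycan, a class of sugar chains that binds chemokines, growth factors and proteins of coagulation. The series set out to learn whether heparin and PPS in the perfusate lessen inflammation in this model.

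Values are log2 expression levels per probe set, and 1 probe set was taken per gene. Values under 4.51, the median of all values on the 4 arrays, were raised to that floor because they lie in the background. Of 14216 named genes, 9393 were above the floor on at least 1 array, and 9238 were above it on both the warm and the PPS array. The RNA of both arrays was alike by the measures on the chip: the 3' probe set of beta-actin exceeded the 5' one by 3.22 on the warm array and 3.19 on the PPS array, and that of GAPDH by 0.84 and 0.81. The 18 hybridisation control probe sets differed by a median of 0.17 (range 0.04 to 0.32) in PPS minus warm, and the 24 poly-A control probe sets by -0.10 (range -0.46 to 0.45).

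Among named genes past 2-fold, lower values on the PPS array outnumbered higher ones. Of 9393 genes, 161 (1.71%) were lower by 2-fold or more and 48 (0.511%) were higher. With no size limit the directions were closer, with 4641 genes below 0 and 4401 above it. They were also closer among 3510 probe sets above the floor without a single gene name, of which 55 were lower and 46 higher by 2-fold or more. The largest differences downward were in transcription factors, chemokines and interferon-stimulated genes, led by Egr2, Ccl20, Oasl and Cxcl10. Those upward were led by Smoc2, Slc22a13 and Serpine2 and held many genes of the extracellular matrix. By 4-fold or more, 35 genes were lower and 8 higher, and by 8-fold or more 7 were lower and 3 higher. The median difference over all genes was 0 with an SD of 0.34, and 84.8% of genes lay within 1.25-fold. A fold with 1 array at the floor is a lower bound, which applied to 21 of the lower genes and 6 of the higher genes. Many of the calls depended on the processing: under all 10 alternatives run, 72 of the 161 lower genes and 8 of the 48 higher genes kept a 2-fold difference. The 8 were Igfbp3, Col3a1, C1s, Mmp11, Col1a2, Ftcd, Dpt and Slc22a13. With the floor at the 65th percentile, 44 lower and 13 higher genes were below it on all arrays, and 24 and 16 more fell short of 2-fold.

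Among genes named below, those short of 2-fold at that floor were Ace, Apoc2, Ccl3, Cish, Cxcr4, Dusp2, Myc, Nfil3, Nr4a3 and Tc2n of the lower, and Adamtsl2, Akr1b10, Aspn, Cdh11, Cftr, Col8a2, Cpne7, Cygb, Fbln5, Gucy1b1, Loxl1, Olfml3, Per3 and Serpine2 of the higher. Below it on all arrays were Birc3, Cox8b, Gdf15, Gpx2, Hbegf, Ifit3, Kcne1, Klf5, Ly6al, Maff, Map3k8, Mtrf1, Nfkbid, Oas1a, Per1, Phlda1, Ripk2, Socs3 and Vcan of the lower, and Areg, Cdk1, Dpep1, Lrp1, Mki67, Mmp2 and Sdc3 of the higher. The lower of the warm and PPS values lay just above the floor, between 4.55 and 4.76, in Per1, Mtrf1, Mmp2, Cdk1, Nfkbid, Sdc3 and Oasl, which leaves these folds uncertain.

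**Figure D1:**
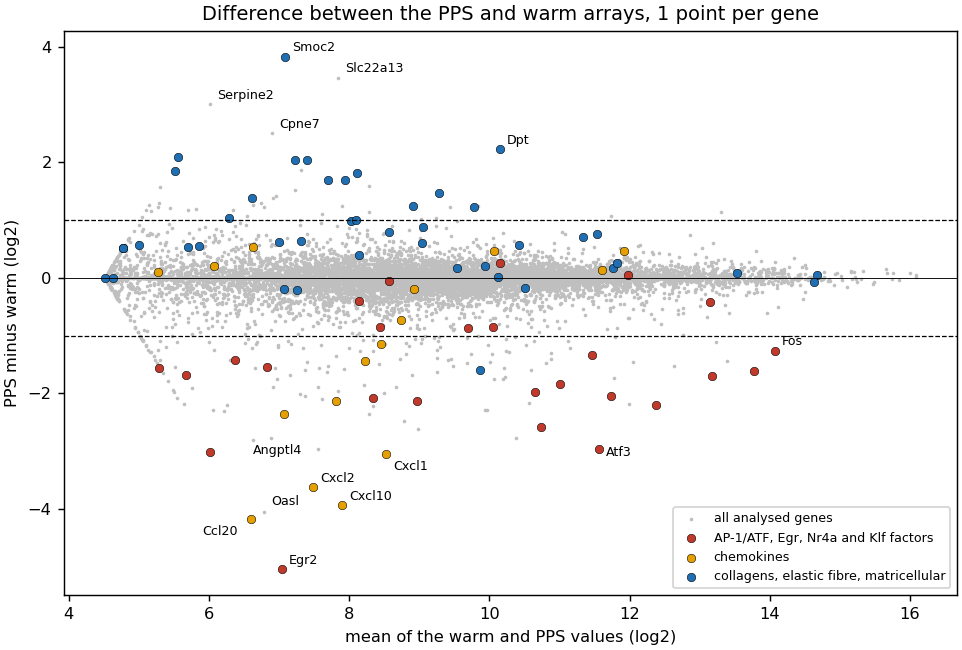
Each point is 1 of the 9393 genes, with the mean of the warm and PPS values (log2) across and PPS minus warm (log2) upward; dashed lines mark 2-fold, and colours mark transcription factors, chemokines and matrix genes. Most genes lie close to 0, transcription factors and chemokines make up much of the lower edge down to Egr2 at -5.04, and matrix genes much of the upper edge up to Smoc2 at 3.83.

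Immediate early transcription factors were lower on the PPS array as a group. Of 9 AP-1 and ATF factors above the floor (13 on the array), 6 were lower by 2-fold or more, none was higher, all 9 lay below 0, and the median difference was -1.55. Of 17 Egr, Nr4a, Krueppel-like and related factors (19 on the array), 12 were lower, none was higher, and the median was -1.68. Beside these stand a median of 0 over all genes and the 1.71% of all genes that were lower; list counts below are to be read against that share and, for higher genes, against 0.511%. Maff and Nr4a3 were above the floor on the warm array alone, so they could only be lower. Without them 5 of 8 and 11 of 16 were lower, with medians of -1.44 and -1.61. The Egr, Nr4a and Krueppel-like median was -1.34 with the floor at the 65th percentile. The medians of the whole lists in warm minus cold were 3.43 and 3.01, and in heparin minus warm -0.89 and -1.23. All 3 comparisons share the warm array.

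Egr2, a zinc finger factor of the early growth response family, was at the floor of 4.51 on the cold array, at 9.55 on the warm array, at 7.29 on the heparin array and again at the floor on the PPS array. It was thus at least 32.9-fold lower with PPS, the largest difference of any gene. A further Egr2 probe set was not above the floor on any array, so this value rests on 1 probe set. Egr1, its close relative, was at 8.87, 14.02, 13.02 and 12.33 on the cold, warm, heparin and PPS arrays, 3.23-fold lower with PPS. The PPS values of the pair differ in where they lie: that of Egr2 was in the background and that of Egr1 well above its cold value.

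The promoter of Egr2 is printed because it holds a match to the CArG box, the element bound by serum response factor, in capitals. It is taken from RefSeq for the assembly GRCr8 (chr20:21054392-21054691, minus strand) and runs 5′ to 3′ from 250 bases before to 50 bases after the transcription start. The CArG match begins 83 bases before the start.
Egr2: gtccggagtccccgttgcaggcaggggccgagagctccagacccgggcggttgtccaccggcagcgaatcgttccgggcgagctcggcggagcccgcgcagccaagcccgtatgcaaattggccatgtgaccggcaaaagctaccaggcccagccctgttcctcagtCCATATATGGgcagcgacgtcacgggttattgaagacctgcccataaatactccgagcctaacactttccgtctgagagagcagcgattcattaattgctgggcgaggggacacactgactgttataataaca

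CArG boxes, searched on both strands, lay in 3.70% of 135 promoters of 128 lower genes, in 0% of 37 promoters of higher genes, in 1.47% of 8718 promoters of the genes analysed and in 1.64% of all 33469 promoters in the table. The lower genes with a match were Egr2, Egr1, Klf6, Zfp36 and Dusp5. Srf, which encodes serum response factor itself, was at 8.83, 10.13, 9.43 and 9.26 on the cold, warm, heparin and PPS arrays, 1.83-fold lower with PPS.

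Within AP-1 and its relatives, Atf3, Fosb, Junb and Jun differed by more than Fos. Atf3, a stress-induced repressor of the ATF family, was at the floor, 13.04, 11.09 and 10.08 on the cold, warm, heparin and PPS arrays, 7.78-fold lower with PPS. Fosb was at the floor, 13.47, 12.18 and 11.27 in the same order, 4.60-fold lower. Junb, a Jun protein that often restrains Jun, was at 7.54, 11.65, 10.26 and 9.67, 3.94-fold lower. Each of these genes was highest on the warm array and lower on the PPS than on the heparin array. Jun was at 11.14, 14.57, 13.69 and 12.96, 3.06-fold lower, and Fos at 6.93, 14.70, 14.08 and 13.44, 2.39-fold lower. When all probe sets of a gene were averaged, the Fos difference came to -0.63, since its other probe set was not above the floor. Maff, a small Maf protein, was above the floor only on the warm array (6.07) and at least 2.93-fold lower. Jund, which is expressed in resting cells, was at 12.25, 13.35, 12.96 and 12.94, 1.33-fold lower.

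The 3 Nr4a orphan nuclear receptors, which act without a known hormone, were all lower by more than 4-fold. Nr4a1 was at 6.67, 12.04, 10.33 and 9.45 on the cold, warm, heparin and PPS arrays, 6.02-fold lower with PPS, and Nr4a2 at 4.92, 10.03, 8.54 and 7.91, 4.36-fold lower. Nr4a3 was above the floor on the warm array alone, at 7.52, at least 8.05-fold lower. It fell short of 2-fold with the floor at the 65th percentile (-0.03) or over all its probe sets (-0.99). Among Krueppel-like factors, Klf6 (4.13-fold), Klf4 (3.56-fold), Klf5 (2.68-fold) and Klf2, a shear-induced factor of endothelium (2.53-fold), were lower. Over all probe sets, Klf2 (-0.61) fell short of 2-fold and Klf5 was below the floor. Klf9 and Klf15, both targets of glucocorticoids, differed by 0.04 and 0.26. Klf4 was at 8.09, 11.91, 10.88 and 10.08 on the 4 arrays, and Klf15 at 10.26, 10.02, 10.22 and 10.28. Myc was at 6.06 on both the cold and the PPS array, 7.59 on the warm and 6.18 on the heparin array, 2.90-fold lower with PPS.

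**Figure D2:**
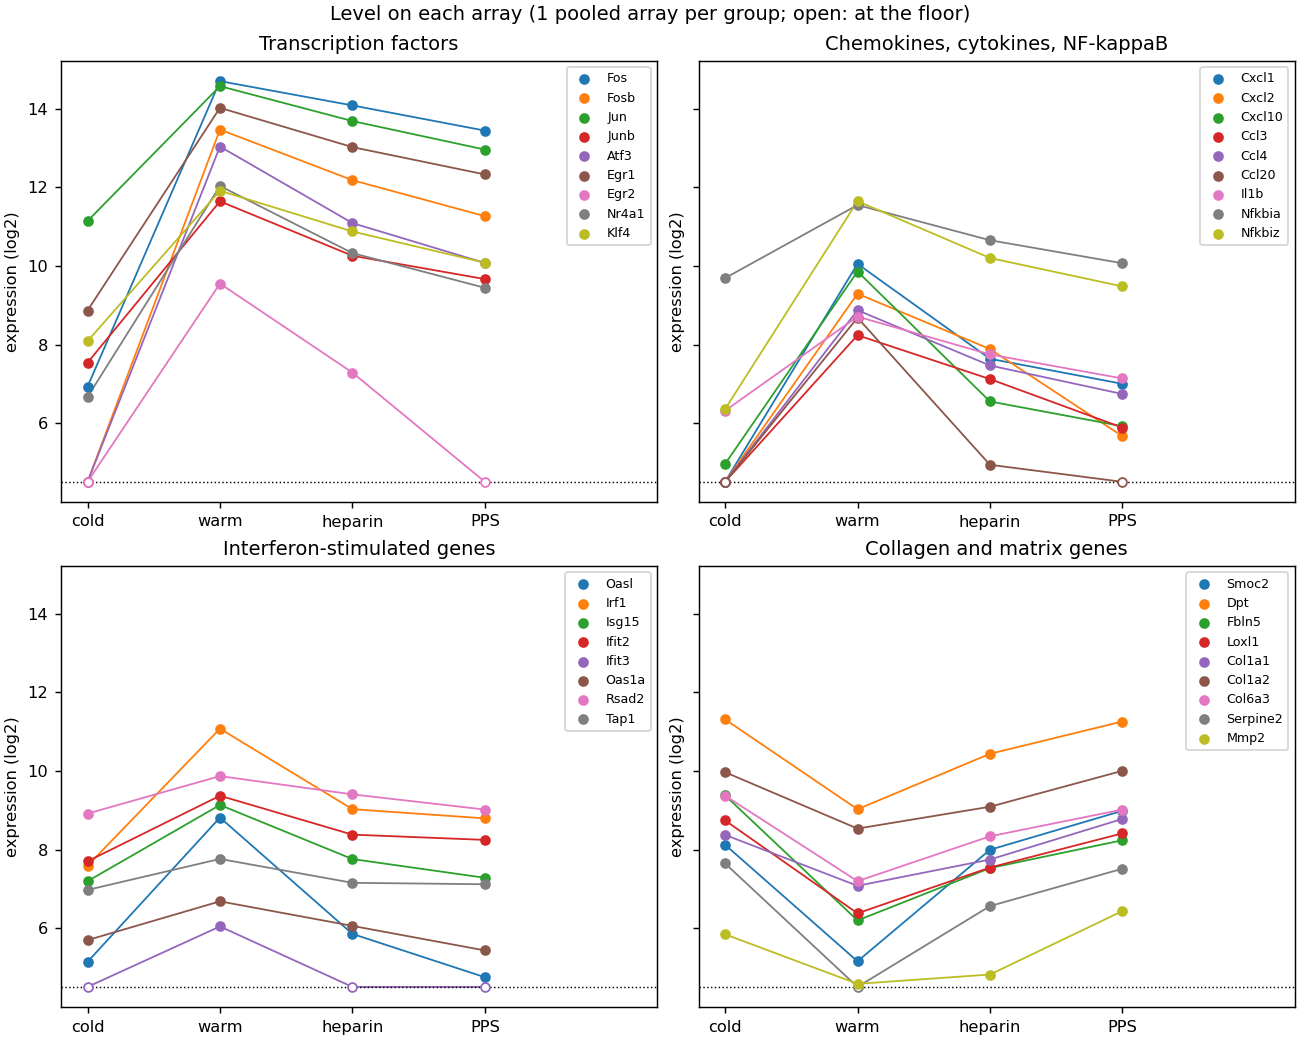
Log2 expression (upward) on the cold, warm, heparin and PPS arrays for 4 groups of genes, 1 line per gene, with open circles at the floor of 4.51 (dotted line). Transcription factors, chemokines and interferon-stimulated genes peak on the warm array and are lower on the PPS array (Egr2 9.55 and 4.51), while matrix genes have their lowest value on the warm array (Smoc2 5.17 against 8.99 with PPS).

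Genes that brake the same signals were lower as well. Of 18 MAP kinase and G-protein feedback genes above the floor (24 on the array), 12 were lower by 2-fold or more, against 1.71% of all genes, all 18 lay below 0, and the median was -1.10. The dual-specificity phosphatases, which switch off MAP kinases, included Dusp2 (2.94-fold lower), Dusp1 (2.88-fold), Dusp5 (2.24-fold) and Dusp6, which acts on ERK (2.13-fold). Dusp1 was at 8.61, 13.40, 12.63 and 11.88 on the cold, warm, heparin and PPS arrays. Dusp6, by contrast, was at 10.78, 11.67, 10.73 and 10.58, so that its PPS value lay under its cold value. It fell just short of 2-fold when scaled to the poly-A controls. Ier2, an immediate early nuclear protein, was 4.85-fold lower, and Rasd1, a small GTPase, 3.69-fold. Spry1, an inhibitor of receptor tyrosine kinase signals, was 2.29-fold lower, whereas its relatives Spry2 and Spry4 differed by -0.16 and -0.13. Rgs1, a GTPase activator that blunts chemokine receptor signals, was at the floor, 10.40, 9.77 and 9.08 on the 4 arrays in the same order, 2.50-fold lower with PPS.

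Of 15 genes of RNA decay, cytokine feedback and growth arrest (19 on the array), 8 were lower, against 1.71% of all genes, all 15 lay below 0, and the median was -1.35. The median was -0.99 with the floor at the 65th percentile and -0.95 over all probe sets. Without Socs3, above the floor on the warm array alone, 7 of 14 were lower with a median of -1.11. Zfp36, whose product tristetraprolin destabilises cytokine mRNAs, was at 8.60, 13.09, 11.42 and 10.91 on the cold, warm, heparin and PPS arrays, 4.52-fold lower with PPS. Zc3h12a, an RNA-cleaving enzyme that also targets cytokine mRNAs, was 3.69-fold lower. Zfp36l1 (-0.68) and Zfp36l2 (-0.21), relatives of Zfp36 in the list, had less difference. Socs3, a feedback inhibitor of JAK-STAT signals, was above the floor only on the warm array (6.59) and at least 4.21-fold lower. Gadd45b, a stress sensor of the Gadd45 family, was at 5.23, 11.76, 9.77 and 8.99, 6.83-fold lower. Plk2, a stress-induced kinase, was at 5.75, 9.46, 7.92 and 7.10, 5.12-fold lower. Cdkn1a, the p21 inhibitor of cell cycle kinases, was at 6.94, 8.82, 6.86 and 6.85, 3.90-fold lower, with PPS and heparin values next to the cold value. Over all its probe sets Cdkn1a differed by -0.95.

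The largest differences among chemokines were downward, and Ccl20, Cxcl10, Cxcl2 and Cxcl1 were lower by more than 8-fold. Of 16 chemokines above the floor (26 on the array), 8 were lower by 2-fold or more, against 1.71% of all genes, and none was higher, with a median of -0.94 that moved to -0.62 with the floor at the 40th percentile. The promoters of Cxcl1, Cxcl2 and Cxcl10 are printed because they hold matches to NF-kappaB motifs, in capitals. They are taken from RefSeq for GRCr8, 5′ to 3′ from 250 bases before to 50 bases after the start: Cxcl1 at chr14:17479272-17479571 (minus strand), Cxcl2 at chr14:17467206-17467505 (minus strand) and Cxcl10 at chr14:15988816-15989115 (plus strand). In Cxcl10 the capitals also mark an interferon response match at 243 bases and an AP-1 match at 96 bases before the start.
Cxcl1: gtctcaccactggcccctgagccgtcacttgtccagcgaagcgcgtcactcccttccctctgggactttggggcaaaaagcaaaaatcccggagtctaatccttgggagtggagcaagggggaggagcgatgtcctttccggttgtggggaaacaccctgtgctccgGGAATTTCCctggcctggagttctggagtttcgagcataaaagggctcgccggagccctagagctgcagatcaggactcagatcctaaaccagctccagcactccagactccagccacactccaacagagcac
Cxcl2: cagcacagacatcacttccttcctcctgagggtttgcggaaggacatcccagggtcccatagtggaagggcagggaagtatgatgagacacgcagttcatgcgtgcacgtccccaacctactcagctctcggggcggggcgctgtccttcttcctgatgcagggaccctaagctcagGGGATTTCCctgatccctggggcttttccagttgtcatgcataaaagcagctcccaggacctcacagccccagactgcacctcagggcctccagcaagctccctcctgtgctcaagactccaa
Cxcl10: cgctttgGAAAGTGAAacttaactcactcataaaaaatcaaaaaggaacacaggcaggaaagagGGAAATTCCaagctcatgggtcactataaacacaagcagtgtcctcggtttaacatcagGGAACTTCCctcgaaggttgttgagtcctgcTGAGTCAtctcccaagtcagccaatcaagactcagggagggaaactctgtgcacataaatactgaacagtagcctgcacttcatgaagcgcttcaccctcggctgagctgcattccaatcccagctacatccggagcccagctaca

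The NF-kappaB motif GGANNTTCC lay 83 bases before the start of Cxcl1 and 186 and 127 bases before that of Cxcl10. A shorter spacing, GGGANTTCC, added after the sequences had been seen, lay 73 bases before the start of Cxcl2. The former motif was in 9.63% of promoters of lower genes and 5.41% of those of higher genes, beside 4.29% over the genes analysed and 4.09% over all promoters. For the latter these 4 shares were 4.44%, 0%, 2.24% and 1.64%. The 13 lower genes with GGANNTTCC were Cxcl1, Cxcl10, Nfkbia, Nfkbiz, Tnfaip3, Icam1, Map3k8, Ppp1r15a, Nr4a2, Rgs1, Aqp4, Ccnl1 and Dusp6. The promoter of Ccl20 held no match to any of the motifs searched. The searches were for these exact letters, so elements spelled otherwise would be missed. In the same order, the shares were 8.89%, 2.70%, 3.34% and 4.63% for the AP-1 motif TGACTCA and 5.93%, 2.70%, 3.01% and 1.83% for the cyclic AMP element TGACGTCA. The interferon response motif GAAANNGAA was in 5.93%, 5.41%, 7.12% and 9.71%, so its share among lower genes was under that of the genes analysed. The Egr motif GCGTGGGCG was in 1.48%, 0%, 1.02% and 0.544%. The TATA box TATAAA was in 20.7%, 16.2%, 6.81% and 14.2%, and the heat shock element in 0%, 0%, 0.482% and 0.798%. All motifs were searched on both strands.

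Cxcl1 and Cxcl2, neutrophil attractants whose genes are next to each other, were both at the floor after cold perfusion alone. Cxcl1 was at 10.05 without supplement, 7.64 with heparin and 7.01 with PPS, 8.28-fold lower with PPS. Cxcl2 was at 9.30, 7.89 and 5.67 in that order, 12.3-fold lower. Cxcl10, an interferon-induced attractant of T cells, was at 4.97, 9.86, 6.56 and 5.93 on the cold, warm, heparin and PPS arrays, 15.3-fold lower. Ccl20, which attracts cells bearing the receptor Ccr6, was at the floor, 8.69, 4.95 and the floor, at least 18.0-fold lower. The neighbouring genes Ccl3 and Ccl4, which attract monocytes, were likewise at the floor after cold perfusion and were 5.10-fold and 4.38-fold lower with PPS. Ccl3 was at 8.24, 7.13 and 5.89, and Ccl4 at 8.88, 7.47 and 6.75 after warm perfusion without supplement, with heparin and with PPS.

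Ccl2, the main monocyte attractant, was at 8.48, 9.03, 8.03 and 7.88 on the cold, warm, heparin and PPS arrays, 2.21-fold lower with PPS and under its cold value. Cxcl13, a B cell attractant, was already high on the cold array at 9.31, was at 8.94 on the warm array, and was 2.71-fold lower with PPS at 7.50. Cxcl12 and Cx3cl1, produced by resting stroma and endothelium, had differences of 0.47 and 0.46. Cxcl11, an interferon-induced chemokine, was at 8.0, 9.10, 8.25 and 8.37 and did not pass the limit (-0.73), and Ccl19 differed by 0.53. The 10 chemokines at the floor on all arrays included Ccl5, Ccl7, Cxcl3 and Cxcl9.

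Cytokines and their receptors differed little beside the chemokines. Of 12 cytokines above the floor (27 on the array), 1 was lower by 2-fold or more: Il1b, the secreted alarm cytokine, at 6.32, 8.71, 7.75 and 7.14 on the cold, warm, heparin and PPS arrays, 2.98-fold lower with PPS. Tnf was above the floor on the warm array alone, at 5.46, and at least 1.92-fold lower. Il6 was among the 15 at the floor on all 4 arrays. The cytokine median was -0.10, and its sign turned when arrays were scaled to the poly-A controls. Of 22 cytokine and Toll-like receptor genes, 1 was lower: Cxcr4, the Cxcl12 receptor, at the floor, 8.16, 6.38 and 6.57 in the same order, 3.01-fold lower with PPS. The receptor median was 0.00.

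Several inhibitors and targets of NF-kappaB were lower on the PPS array. Of 22 genes of the list above the floor (25 on the array), 8 were lower by 2-fold or more, against 1.71% of all genes, none was higher, and the median was -0.27. Without Birc3, above the floor on the warm array alone, 7 of 21 were lower. Lower were Nfkbiz, a nuclear cofactor of the IkappaB family (4.49-fold), Cd83, a surface protein of activated cells (3.21-fold), Nfkbia, the IkappaB-alpha inhibitor (2.79-fold), and Tnfaip3, the A20 ubiquitin-editing enzyme (2.63-fold). Nfkbia was at 9.69, 11.55, 10.66 and 10.07 on the cold, warm, heparin and PPS arrays, and Nfkbiz at 6.36, 11.65, 10.20 and 9.48. Nfkbid was 2.37-fold lower, Birc3, an inhibitor of cell death, at least 2.24-fold, and Ptgs2, which encodes cyclooxygenase-2, 2.26-fold. Ripk2, a kinase of innate sensing, was at the limit at 2.0-fold and fell under it when arrays were scaled to the poly-A controls or the reference genes or quantile-normalized. The subunits Nfkb2, Rela and Nfkb1 had differences of -0.69, -0.10 and 0.14, the kinases Ikbkb and Chuk of -0.21 and 0.13, and the IkappaB family members Nfkbib and Bcl3 of -0.14 and 0.05. Bcl3 was at 5.65, 6.72, 6.38 and 6.77.

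A minority of interferon-stimulated genes passed the limit, all of them lower. Of 34 above the floor (40 on the array), 6 were lower by 2-fold or more, against 1.71% of all genes, 28 lay below 0, and the median was -0.44, beside 0.50 for the same list in warm minus cold. Oasl, an antiviral protein related to the oligoadenylate synthetases, was at 5.15, 8.82, 5.86 and 4.76 on the cold, warm, heparin and PPS arrays, 16.7-fold lower with PPS. Irf1, the transcription factor upstream of many of these genes, was at 7.59, 11.08, 9.03 and 8.80, 4.86-fold lower. Isg15, a ubiquitin-like modifier, was at 7.20, 9.14, 7.76 and 7.29, 3.61-fold lower. Oas1a was 2.38-fold lower, Ifit2 2.18-fold, and its neighbour Ifit3 at least 2.90-fold. Ifit3 was above the floor on the warm array alone, and without it 5 of 33 were lower. In contrast, Mx2 (-0.07), Stat2 (0.09), Irf8 (0.09) and the immunoproteasome subunits Psmb8 (-0.04) and Psmb9 (-0.04) differed little.

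Of 12 class I and antigen presentation genes, 1 was lower by 2-fold or more, RT1-T24-4 at 8.99, 9.47, 9.61 and 8.41, 2.08-fold lower with PPS and under 2-fold when scaled to the poly-A controls. Genes of this family are near-identical copies, and their probe sets may not tell them apart. Tap1, a peptide transporter, differed by -0.64, and B2m, the shared light chain, by -0.07.

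The largest differences in the stress lists were downward. Of 23 heat shock genes above the floor, 4 were lower by 2-fold or more, against 1.71% of all genes, 21 lay below 0, and the median was -0.23. Hspa1a, the inducible Hsp70, was at 9.87, 14.11, 12.99 and 12.68 on the cold, warm, heparin and PPS arrays, 2.70-fold lower with PPS. Its co-chaperones Dnajb1 and Dnajb4 were 2.75-fold and 2.13-fold lower, the latter under 2-fold when scaled to the poly-A controls, and the small heat shock protein Hspb1 was 2.66-fold lower. Dnajb1 was at 11.36, 12.78, 11.79 and 11.32, so that its PPS value was next to the cold one, unlike that of Hspa1a. The constitutive chaperones Hspd1 and Hspa9 of mitochondria differed by 0.02 and -0.05.

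In the integrated stress and unfolded protein response, 5 of 22 genes were lower by at least 2-fold, against 1.71% of all genes, and the list median was -0.24. Without Gdf15, above the floor on the warm array alone, 4 of 21 were lower. Ppp1r15a, the phosphatase subunit GADD34 that restores translation, was at 5.70, 10.30, 8.57 and 7.68 on the cold, warm, heparin and PPS arrays, 6.15-fold lower with PPS. Ddit3, the factor CHOP, was 3.35-fold lower at 9.09, 11.06, 9.84 and 9.32. Its activator Atf4 was 2.04-fold lower, which fell under 2-fold when scaled to the poly-A controls or reference genes. The chaperone targets of the unfolded protein response, Manf, Creld2 and Sdf2l1, had differences of 0.18, 0.21 and 0.24, and Hspa5 of -0.24. Of 18 p53 target and apoptosis genes, 3 were lower: Cdkn1a, Phlda1 (2.93-fold) and Tnfrsf12a, the Tweak receptor (2.41-fold). The p53 targets Mdm2, Ccng1 and Sesn1 differed by -0.22, 0.14 and -0.01.

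Hypoxia and redox lists had few members past 2-fold. Of 28 hypoxia-response and glycolysis genes, 2 were lower: Pfkfb3, a regulator of glycolysis (2.78-fold), and Adm, which encodes the vasodilator adrenomedullin (2.72-fold). Adm was at 6.19, 8.92, 7.84 and 7.47 on the cold, warm, heparin and PPS arrays. Pfkfb3 fell short of 2-fold over all its probe sets (-0.50). Vegfa, Slc2a1 and Ldha, classical targets of the hypoxia-inducible factors, differed by -0.30, -0.48 and -0.23. Of the 28 genes, 23 lay below 0, and the list median was -0.15.

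Of 29 genes of NRF2, glutathione and haem defence, 3 were lower and 1 was higher, with a median of -0.01 whose sign turned between scalings. Lower were Gpx2, an epithelial glutathione peroxidase, at 5.09, 6.71, 5.51 and 4.81 (3.73-fold), Hspb1, and the aldose reductase gene Akr1b1. Akr1b1 was at 11.56 and 11.53 on the cold and warm arrays and at 10.23 on both the heparin and the PPS array, 2.46-fold lower with PPS. It fell short of 2-fold over all its probe sets (-0.89). Akr1b10, a close paralog, was at 8.23, 6.25, the floor and 7.67, 2.68-fold higher with PPS. A further Akr1b10 probe set differed by -0.21, so its probe sets disagree, and their mean (0.61) fell short of 2-fold. Paralogs of this family may share signal. Nqo1 and Gclc, standard NRF2 targets, differed by -0.31 and 0.11.

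Metabolic and clock lists had few genes past the limit. Angptl4, a secreted inhibitor of lipoprotein lipase, was at the floor, 9.04, 6.20 and 6.08 on the cold, warm, heparin and PPS arrays, 7.78-fold lower with PPS. Pdk4, a kinase that shuts off pyruvate oxidation, was at 7.39, 10.69, 9.36 and 9.38, 2.48-fold lower. These were the only 2 of 23 fatty acid handling genes past 2-fold, and Pdk4 fell short of it over all its probe sets (-0.69). Apoc2, the lipoprotein lipase activator, was outside the lists, at 4.68, 8.03, 5.68 and 5.22, 7.02-fold lower.

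Among 18 clock genes, 2 were lower and 1 was higher. Nfil3, a repressor of the clock output, was at 7.12, 8.26, 7.12 and 5.50 on the cold, warm, heparin and PPS arrays, 6.80-fold lower with PPS and under its cold value. Per1, an inducible period gene, was at 4.54, 6.74, 4.63 and 4.55, 4.56-fold lower. Per3 was at 6.17, 6.79, 6.79 and 7.79, 2.01-fold higher, and fell short of 2-fold when scaled to the hybridisation controls or over all its probe sets. Dbp, a clock output factor that competes with Nfil3 for the same DNA element, was at 7.22, 7.75, 7.19 and 8.53, 1.72-fold higher, and Bmal1 and Clock differed by -0.21 and 0.08. The time of day at which kidneys were taken is not given in the labels.

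Of 11 EGF receptor ligands and receptors, Hbegf was lower and Areg higher. Hbegf, a membrane-anchored ligand that is released by shedding, was at 4.80, 7.36, 5.57 and 5.06, 4.91-fold lower with PPS. Areg, another ligand of the receptor, was at 5.13, 5.22, 6.88 and 6.42, 2.29-fold higher. Among 27 TGF-beta, BMP and Ccn genes, Ccn1, a matrix protein induced by stretch, was alone past 2-fold, at 6.87, 10.99, 7.06 and 9.42, 2.96-fold lower with PPS. For Ccn1 the heparin value, not the PPS value, was the one nearest to the cold value. Ccn2, its relative, differed by -0.36. Of 11 prostaglandin genes, Ptgs1 (2.40-fold) and Ptgs2 (2.26-fold), the cyclooxygenases, were lower, the former short of 2-fold over all its probe sets (-0.63). Of 20 tubular injury and keratin genes, 16 lay below 0, with a median of -0.27. Krt18 alone was past 2-fold, at 8.33, 10.19, 9.30 and 9.16, 2.05-fold lower. It was under 2-fold when scaled to the poly-A controls or reference genes. Havcr1 and Lcn2, the usual injury markers of the tubule, were at the floor on all 4 arrays.

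**Figure D3:**
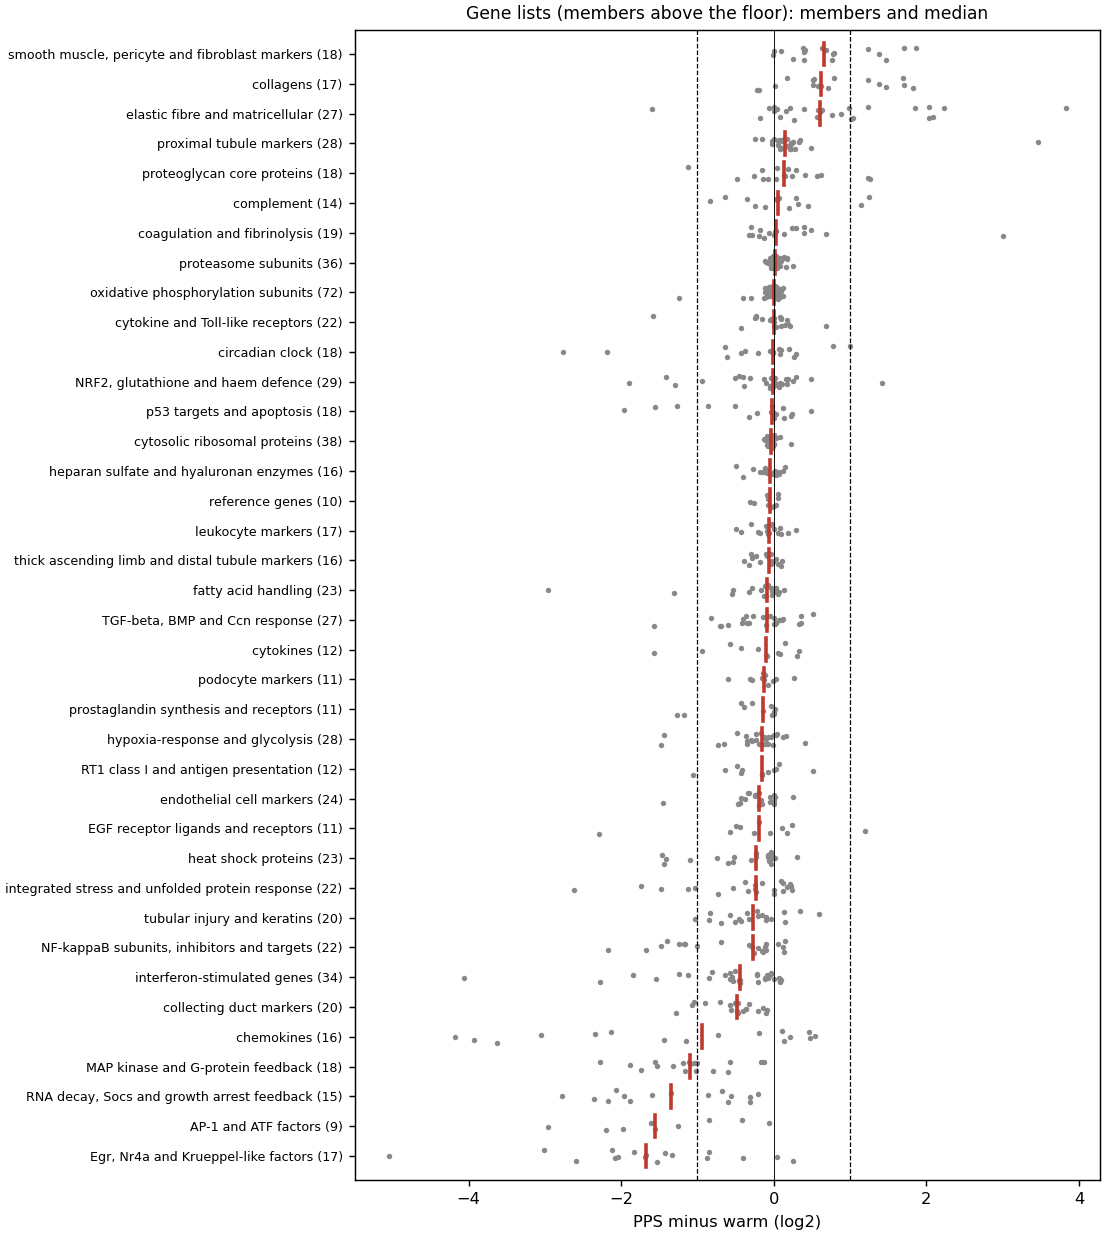
PPS minus warm (log2, across) for the members above the floor of each gene list (grey points, number in brackets) with the list's median (red bar), in order of the median; dashed lines mark 2-fold. Transcription factor, feedback and chemokine lists have the lowest medians (-1.68 to -0.94), and the smooth muscle and fibroblast, collagen and elastic fibre lists the highest (0.61 to 0.66).

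Matrix genes were the group with higher values on the PPS array. Of 17 collagen genes above the floor (22 on the array), 6 were higher by 2-fold or more, against 0.511% of all genes, none was lower, 15 lay above 0, and the median was 0.62. Of 27 elastic fibre and matricellular genes (40 on the array), 9 were higher, against 0.511% of all genes, 1 was lower, 22 lay above 0, and the median was 0.61, or 0.33 with the floor at the 65th percentile. In warm minus cold the 2 medians were -0.86 and -0.65, and in heparin minus warm 0.43 and 0.43, with the warm array shared by all 3 comparisons.

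Col1a1 and Col1a2, the chains of fibrillar collagen I, were higher together. Col1a1 was at 8.38, 7.08, 7.75 and 8.79 on the cold, warm, heparin and PPS arrays, 3.25-fold higher with PPS, and Col1a2 at 9.97, 8.54, 9.09 and 10.01, 2.77-fold higher. Col3a1 was at 9.31, 8.29, 8.89 and 9.53, 2.36-fold higher. For these 3 chains the PPS value was the highest of the 4 arrays and the warm value the lowest. Col6a3 was 3.53-fold higher, Col12a1, a collagen on the surface of fibrils, 3.23-fold, and Col8a2 2.61-fold, all with their highest value on the cold array (9.38, 9.15 and 8.07). Over all probe sets, Col1a1 (0.92), Col6a3 (0.91) and Col12a1 (0) fell short of 2-fold. Basement membrane chains had smaller differences, with Col4a1 at 0.71, Col4a2 at 0.58, Col4a5 at 0.17 and Col18a1 at 0.02.

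Smoc2, a matricellular protein that binds calcium, had the largest difference upward: it was at 8.13, 5.17, 8.0 and 8.99 on the cold, warm, heparin and PPS arrays, 14.2-fold higher with PPS. This value rests on 1 probe set, since 2 further Smoc2 probe sets were below the floor on all arrays, and with all averaged so was the gene. Dpt, the collagen-binding protein dermatopontin, was at 11.32, 9.03, 10.44 and 11.26, 4.69-fold higher. Fbln5 and Loxl1, which act together in elastic fibre assembly, were 4.11-fold and 4.09-fold higher, Fbln5 at 9.38, 6.20, 7.54 and 8.24 and Loxl1 at 8.75, 6.38, 7.55 and 8.42. All 4 genes had their lowest value on the warm array. Fbln5 lies next to Tc2n, which went the other way and was 2.20-fold lower.

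Olfml3 was at the floor on the warm array and at least 4.25-fold higher with PPS, Mmp2, the gelatinase that cleaves denatured collagen, was 3.61-fold higher (its other probe set was below the floor), and Igfbp3, a carrier of insulin-like growth factors, 2.35-fold. Fbn1, the fibrillin of microfibrils, was 2.01-fold and Adamtsl2 2.06-fold higher, and both fell short of 2-fold when scaled to the hybridisation controls (0.84 and 0.88). The exception was Adamts1, a protease induced by inflammation, at 9.63, 10.67, 9.49 and 9.07, 3.02-fold lower with PPS. Sparc, Timp2 and Timp3 had differences of 0.26, 0.16 and -0.07.

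Genes tied to glycosaminoglycans were mostly alike on both arrays. Of 18 proteoglycan core protein genes, Aspn (2.40-fold) and Sdc3, a syndecan (2.35-fold), were higher, and Vcan, the large hyaluronan-binding versican, was lower (2.18-fold). Aspn was at 7.26, 6.00, 7.51 and 7.26, and fell short of 2-fold with the floor at the 65th percentile or over all its probe sets. Vcan was at 7.16, 7.08, 5.66 and 5.96. Over all probe sets, Sdc3 and Vcan were below the floor on all arrays. The heparan sulfate proteoglycans Hspg2, Sdc4 and Agrn differed by 0.04, -0.26 and -0.15. Of 16 genes for enzymes of heparan sulfate and hyaluronan, 0 passed 2-fold in either direction, with a range from -0.49 (Hs3st1, a sulfotransferase that makes the antithrombin-binding site) to 0.15.

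Among 19 coagulation and fibrinolysis genes, 1 passed the limit. Serpine2, protease nexin 1, an inhibitor of thrombin and plasminogen activators, was at 7.65, the floor, 6.57 and 7.52 on the cold, warm, heparin and PPS arrays, at least 8.03-fold higher with PPS. With the floor at the 65th percentile its difference was 0.02. F3, the tissue factor that starts coagulation, differed by 0.01, Thbd by -0.19 and Tfpi by 0.03. Of 14 complement genes, the neighbouring protease genes C1r and C1s were higher, 2.20-fold and 2.37-fold. C1s was at 10.89, 9.22, 9.94 and 10.46, and C1r fell under 2-fold when scaled to the hybridisation controls. C3 differed by 0.31.

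The list of smooth muscle, pericyte and fibroblast markers, which shares genes with the collagen list, also had higher values on the PPS array. Of 18 smooth muscle, pericyte and fibroblast markers above the floor (25 on the array), 5 were higher, none was lower, 16 lay above 0, and the median was 0.66. Their summed level on a linear scale was 12598 after cold perfusion, 6432 on the warm array, 7761 with heparin and 10349 with PPS. The 5 were Cygb, Gucy1b1, Col1a1, Col1a2 and Col3a1, of which the last 3 are also in the collagen list. The count, median and summed level of the markers are therefore not separate from the collagen result. Cygb, a globin of pericytes and fibroblasts, was at 9.09, 6.38, 7.37 and 8.25, 3.65-fold higher with PPS, and Gucy1b1, a subunit of the nitric oxide receptor, 2.60-fold. Pdgfra and Pdgfrb, receptors that define fibroblasts and pericytes, differed by 0.78 and 0.79. The smooth muscle genes Acta2 and Myh11 differed by -0.01 and 0.25, and Des, Cnn1, Lmod1, Rgs5, Cspg4, Notch3 and Lum were at the floor on all arrays. The part of these cells in the matrix result was not tested.

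Leukocyte, endothelial and podocyte markers had medians closer to 0. Leukocyte markers, beside which the chemokine result stands, held 17 of 34 above the floor, 0 past 2-fold in either direction, and a median of -0.06. Their summed level was 52160 on the warm array and 49441 on the PPS array, with S100a8, S100a9, Itgam, Cd3d, Cd4 and Cd8a at the floor on all 4 arrays. Of 24 endothelial markers, Icam1, an adhesion molecule for leukocytes that is also a target of NF-kappaB, was lower (2.75-fold), at 8.77, 10.74, 9.27 and 9.28. The endothelial median was -0.20, with Pecam1 at -0.24 and Kdr at -0.44, and Sele and Selp were at the floor on all arrays. Of the 24, 20 lay below 0, and their summed level was 22501 on the warm array and 17538 on the PPS array. Podocyte markers had a median of -0.12 with 0 of 11 past 2-fold. The part of these cells in the results was not tested.

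All 20 collecting duct markers above the floor lay below 0, with a median of -0.48, beside a median of 0.64 in warm minus cold and -0.58 in heparin minus warm. Their summed level was 43704 after cold perfusion, 56791 on the warm array, 44632 with heparin and 43727 with PPS. Aqp4, a basolateral water channel, was at 9.30, 10.92, 9.72 and 9.64, 2.43-fold lower with PPS, while Aqp2, the vasopressin-regulated channel, differed by -0.48 and Avpr2 by -0.08. Tmem45b (2.1-fold) and Kcne1 (at least 2.05-fold) were the other 2 past the limit, and both fell under it when scaled to the poly-A controls, Kcne1 also when scaled to the reference genes.

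Of 28 proximal tubule markers, 24 lay above 0, with a median of 0.15 that turned to -0.02 when scaled to the hybridisation controls. The abundant transporters and receptors differed little, with Slc34a1 at 0.08, Lrp2 at 0.23, Cubn at 0.21 and Aqp1 at 0.18. Slc22a13, an organic anion transporter for nicotinate and urate, stood apart: it was at 5.29, 6.10, 9.26 and 9.57 on the cold, warm, heparin and PPS arrays, 11-fold higher with PPS. Its 2 low values were on the arrays of kidneys without a supplement. Thick ascending limb and distal tubule markers had a median of -0.07 with 0 of 16 past 2-fold.

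Genes with housekeeping roles differed little. Cytosolic ribosomal proteins had a median of -0.03 with 0 of 38 past 2-fold, proteasome subunits 0.02 with 0 of 36, and 10 reference genes -0.05 with 0 past it. Among 72 subunits of oxidative phosphorylation the median was 0.00, and Cox8b, the muscle form of a cytochrome oxidase subunit, was alone past 2-fold, above the floor on the warm array only (5.75), at least 2.36-fold lower with PPS.

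Outside the lists lay 68 of the lower and 22 of the higher genes. Among the former were Slfn4, a Schlafen protein of macrophages, at 8.76, 10.02, 8.89 and 7.54 (5.59-fold lower with PPS), Slco4a1, an organic anion transporter (4.67-fold), Map3k8, the kinase Tpl2 that links Toll-like receptors to ERK (4.60-fold), and Ly6al (4.88-fold). Cpne7, a copine, was at 9.33, 5.65, 7.65 and 8.15, 5.69-fold higher with PPS. Ftcd, an enzyme of histidine breakdown, was at 7.49 and 9.08 on the warm and PPS arrays, 3.01-fold higher, and Cdh11, a cadherin of mesenchymal cells, 2.89-fold, though below the floor over all its probe sets. Cftr, the chloride channel, was at 7.35, 6.09, 7.80 and 7.39, 2.47-fold higher. Cdk1, the mitotic kinase, was at 4.80, 4.63, 5.44 and 5.94, 2.47-fold higher from a warm value just above the floor.

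Further probe sets of the same genes, which measure the same pools, were used to check the probes. For lower genes, 23 further probe sets of 19 genes were above the floor on either array: all 23 had the same sign, 15 were past 2-fold, and their median was -1.53 beside -1.41 for the probe sets analysed. Those of Nr4a3, Cebpd, Klf5, Cish and Aqp4 were above the floor on the warm but not the PPS array. After flooring, the sign of these could only be negative. Jun (-1.63 and -1.80), Klf6 (-2.08 and -2.71) and Cxcr4 (-2.52 and -1.73) each had a pair of such probe sets. For higher genes, 6 of 8 further probe sets of 7 genes had the same sign and 4 were past 2-fold, among them Col1a2 (2.55), Igfbp3 (1.96) and Dpt (1.27). The exceptions in sign were single probe sets of Nom1 (-0.16) and Akr1b10 (-0.21). The Dpep1 probe set counted here was above the floor on the PPS but not the warm array, so it could only be higher.

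**Figure D4:**
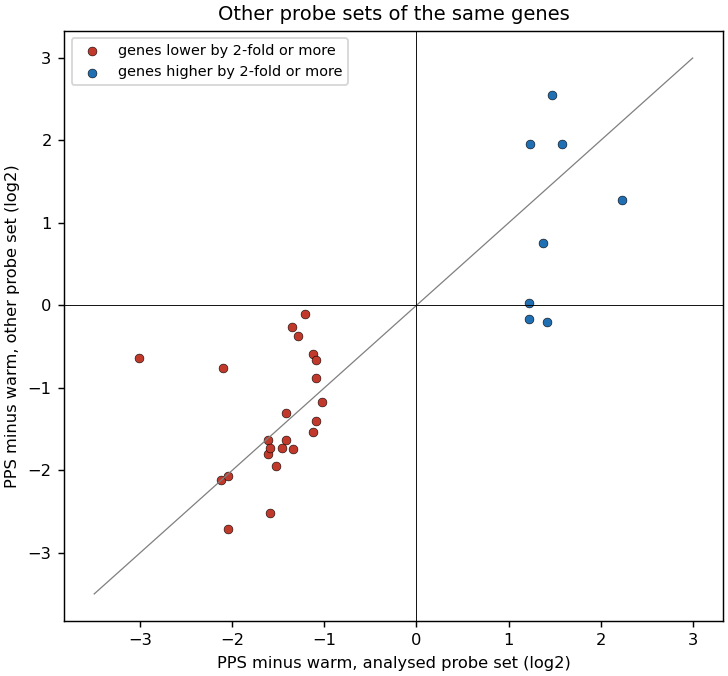
PPS minus warm (log2) of the probe set analysed (across) and of further probe sets of the same gene (upward), for genes lower (red) or higher (blue) by 2-fold or more; the grey line marks equal values. All 23 further probe sets of lower genes lie below 0, and 6 of 8 of higher genes lie above it. Those of Nr4a3, Cebpd, Klf5, Cish, Aqp4 and Dpep1 were above the floor on only the warm or only the PPS array of this pair, which fixed their sign.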

How the data were processed

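Gene expression was measured on 4 Affymetrix arrays, 1 per group. The values are log2 expression levels that the authors deposited, made with GCRMA per the submitters' processing notes. The GCRMA version and the scale are not given in the sources used here: log2 follows from the range, 2.11 to 16.4. GCRMA puts probe sets with little specific signal at a common lowest value, 27.3% on the warm array and 27.1% on the PPS array, and makes the distributions of the arrays alike, so a change in total mRNA would not be seen.

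From these values, 57 control probe sets were set aside. Of the others, 20826 have 1 gene symbol in GEO's platform annotation, 436 have several and were not used by name, and the rest are unnamed here. Symbols were updated through Entrez identifiers to RefSeq's GRCr8 annotation (20758 matched). For 4526 genes with several probe sets, the one highest on average over the 4 arrays stood for the gene. Values below the 50th percentile, 4.51, were raised to it. A gene counted as higher or lower from 2-fold, with no test. The number of arrays limits the precision. Calculations used Python 3.11.15, numpy 2.4.6 and pandas 2.3.3, and were tested on simulated data.

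Genes are named by a rule: the 20 largest measured differences and 8 largest bounds per direction, and up to 8 members of each of 40 gene lists, with members of known function on either side of the limit. The 40 lists, the rule and the motifs were chosen with earlier results of these data known. Alternatives were other floors (40th and 65th percentile, none), the mean of all probe sets, another choice of probe set, 5 scalings, and limits of 1.5-fold and 3-fold. List counts without members above the floor on 1 array alone were added after seeing the data. Genes named outside the rule were chosen after their values were seen. Promoter sequences came from RefSeq (GRCr8), matched by Entrez identifier for 128 lower and 37 higher genes. Smoc2, Atf3 and Nr4a3 have no sequence printed here.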

Additional observations from a re-analysis of the deposited data

How the results depend on the processing

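Counts of genes past the limit moved most with the floor and the limit. With the floor at the 65th percentile, 19 genes were higher and 93 lower; at a limit of 1.5-fold 167 were higher and 350 lower, and at 3-fold 14 and 63. With no floor the counts were 61 and 188, and with the mean of all probe sets 33 and 136. Scaling to the hybridisation controls moved the median of all genes by -0.17 and gave 36 higher and 209 lower, and scaling to the poly-A controls moved it by 0.10 and gave 56 and 139. No gene past 2-fold changed sign under the alternatives run, but for most of these the sign was fixed in advance. Another floor cannot turn a sign, and scaling by a constant moved values by far less than 2-fold. Genes below the floor on all arrays had no sign to compare. Of the 209, 40 fell short of 2-fold with the floor at the 65th percentile and 57 were below it on all arrays; with the mean of all probe sets the numbers were 27 and 14. Short of 2-fold were 22 lower genes when scaled to the poly-A controls, 11 to the reference genes, 4 after quantile normalization, and 12 higher genes when scaled to the hybridisation controls. List medians moved by over 0.25 in 6 cases: with the floor at the 40th percentile those of chemokines (-0.62) and of fat cell and adrenal markers (-0.03), with the 65th those of Egr, Nr4a and Krueppel-like factors (-1.34), RNA decay and feedback (-0.99) and elastic fibre genes (0.33), and over all probe sets that of RNA decay and feedback (-0.95). No paired analysis was possible because each group has 1 array. Leaving out an array would leave no comparison.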

Other observations

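The PPS array stood 2-fold or more from each of the 3 other arrays, above or below all of them, in 5 genes, which were singled out after their values were seen. Nfil3, Slfn4 and Per3 are described above. Mki67, the proliferation marker Ki-67, was at 4.93, 5.11, 5.23 and 6.29 on the cold, warm, heparin and PPS arrays. Mtrf1, a mitochondrial release factor, was at 5.78, 6.01, 5.78 and 4.59, the last just above the floor. Among 3510 probe sets above the floor that carry no single gene name, 55 were lower and 46 higher by 2-fold or more with PPS. The largest of these differences was in a probe set at the floor, 8.60, 5.17 and the floor on the cold, warm, heparin and PPS arrays.

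Genes chosen after their values were seen also include regulators and epithelial genes outside the lists. Cebpd and Cebpb, transcription factors of the acute phase, were at 8.66 and 9.81 on the warm array and at 6.56 and 8.72 on the PPS array, 4.28-fold and 2.14-fold lower. Over all its probe sets Cebpd fell short of 2-fold (-0.83). Elf3, an epithelial factor induced by inflammation, was 3.10-fold lower, and Cldn4, a tight junction protein, 2.89-fold. Ch25h, which makes an oxysterol with antiviral effects, was at 7.01, 9.18, 8.0 and 7.68 on the cold, warm, heparin and PPS arrays, 2.82-fold lower. S100a4, a calcium-binding protein of fibroblasts and macrophages, was 3.98-fold lower, at 9.18, 9.49, 8.08 and 7.50. Ace, the angiotensin-converting enzyme, was at 7.27, 7.57, 7.05 and 6.40, 2.25-fold lower, or by -0.32 over all its probe sets. Lgals1, a galectin, and Lrp1, an endocytic receptor, were 2.03-fold and 2.11-fold higher, and both fell short of 2-fold when scaled to the hybridisation controls (0.86 and 0.91). Over all its probe sets Lrp1 differed by 0.08.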
